A study of Mus musculus with 24 samples.

Results

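Nuclear receptors are transcription factors that bind lipids, hormones or foreign compounds, or have no known ligand, and switch genes on or off at short DNA elements. The transcripts of 40 of them were read in RNA-seq libraries of liver, inguinal white adipose tissue (iWAT), gastrocnemius muscle (GM) and hypothalamus. The genes were taken by symbol from the table of 24532 genes, and all 40 were found there. They comprise sensors of lipids and foreign compounds, receptors for retinoids, thyroid hormone and vitamin D, steroid receptors, orphan receptors and the atypical receptors without a DNA-binding domain. The libraries came from C57BL/6 mice on chow, labelled as 8 weeks old, of 2 genotypes. LKO mice were Alb-Cre;Crif1flox/flox, in which Cre driven by the albumin promoter removes Crif1, a protein of the mitochondrial ribosome, from hepatocytes. Ctrl mice were Crif1flox/flox and carried the same floxed alleles without Cre. Each genotype had 3 libraries in each of the 4 tissues, which makes 24, named here by genotype and number (Ctrl 1, LKO 3). The labels do not state whether the tissues were from the same mice, and p-values measure the spread between these libraries.

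Several receptors act in pairs. RXR receptors are the partners of the PPAR, RAR, thyroid hormone, LXR, FXR, PXR and CAR receptors, and the pair, rather than either receptor alone, binds DNA. In liver, HNF4alpha maintains hepatocyte genes, FXR and SHP restrain bile acid synthesis, PXR and CAR induce drug-metabolizing enzymes and PPARalpha drives fatty acid oxidation during fasting. PPARgamma is the master regulator of adipocytes, and ERR receptors drive mitochondrial genes in muscle.

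All levels are in FPKM, the sequenced fragments of a gene divided by its length and by library size, so that genes can be compared. Depth, inferred from the ratio of coverage to FPKM, was 4.447 to 8.086 gigabases per library. Crif1 (Gadd45gip1) averaged 13.6 ± 1.06 FPKM (SD, n = 3) in Ctrl and 3.30 ± 1.83 FPKM in LKO liver, a log2 fold change of -1.84 (adjusted p = 0.00357, limma with Benjamini-Hochberg adjustment). Transcripts typical of other tissues were unevenly spread over the libraries. Alb, made by hepatocytes, reached 167.5 and 124.9 FPKM in GM Ctrl 1 and Ctrl 3 against 13.7 FPKM in Ctrl 2, and 6 pituitary markers summed to 131 to 591 FPKM in LKO against 7.45 to 54.3 FPKM in Ctrl hypothalamus. In a bulk sample fewer cells of a type and less RNA per cell cannot be told apart.

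For Nr1i3, Nr0b2, Pparg, Rarg and Thrb, the 250 bases before a transcription start are shown first, because they hold the sequence next to which each gene is read. They were taken from RefSeq on build GRCm38.p6, which has the coordinates of mm10, the build of the deposited files, and read 5′ to 3′ on the strand of the gene. Capitals mark AGGTCA, the hexamer to which most of these receptors bind, or its reverse complement TGACCT, and CACGTG, the E-box bound by clock and lipogenic basic helix-loop-helix factors. Nr1i3 and Nr0b2 were lower in LKO liver, Pparg and Rarg were higher, and Thrb had the smallest p-value of the receptors in iWAT. Rora and Nr6a1, also called higher in LKO liver, are not shown. The windows are chr1:171213720-171213969 on the plus strand for Nr1i3, chr4:133553126-133553375 on the plus strand for Nr0b2, chr6:115362099-115362348 on the plus strand for Pparg (1 of its 3 listed starts), chr15:102257523-102257772 on the minus strand for Rarg (1 of its 2 starts) and chr14:17660710-17660959 on the plus strand for Thrb (1 of its 2 starts).
Nr1i3: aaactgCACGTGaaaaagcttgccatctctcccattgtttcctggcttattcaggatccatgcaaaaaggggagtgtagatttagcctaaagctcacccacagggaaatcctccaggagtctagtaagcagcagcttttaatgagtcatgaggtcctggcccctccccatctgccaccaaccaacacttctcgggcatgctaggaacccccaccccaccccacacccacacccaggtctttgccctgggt
Nr0b2: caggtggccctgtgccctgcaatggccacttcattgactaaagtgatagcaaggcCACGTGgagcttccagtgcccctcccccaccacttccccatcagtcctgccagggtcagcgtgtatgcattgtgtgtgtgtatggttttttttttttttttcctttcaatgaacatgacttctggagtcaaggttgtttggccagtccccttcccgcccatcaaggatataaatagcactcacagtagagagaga
Pparg: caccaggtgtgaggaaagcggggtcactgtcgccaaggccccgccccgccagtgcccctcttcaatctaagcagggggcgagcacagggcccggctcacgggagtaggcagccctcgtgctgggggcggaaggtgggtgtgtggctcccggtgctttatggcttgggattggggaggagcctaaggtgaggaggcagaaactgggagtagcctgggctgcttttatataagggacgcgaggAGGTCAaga
Rarg: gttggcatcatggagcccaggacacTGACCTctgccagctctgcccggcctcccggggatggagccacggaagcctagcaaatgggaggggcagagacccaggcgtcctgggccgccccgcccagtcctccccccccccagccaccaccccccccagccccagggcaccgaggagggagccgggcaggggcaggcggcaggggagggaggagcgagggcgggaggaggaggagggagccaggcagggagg
Thrb: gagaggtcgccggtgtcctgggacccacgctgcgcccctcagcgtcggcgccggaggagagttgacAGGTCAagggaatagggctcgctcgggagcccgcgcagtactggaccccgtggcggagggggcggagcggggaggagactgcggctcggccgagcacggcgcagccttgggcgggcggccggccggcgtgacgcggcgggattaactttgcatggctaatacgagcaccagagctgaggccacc

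CACGTG lay 244 bases before the Nr1i3 start and 195 bases before the Nr0b2 start, counted to the first base of the match. AGGTCA or its complement began 9 bases before the Pparg start, 225 before the Rarg start and 184 before the Thrb start. For genes with several starts the window shown is one that holds a match, the one nearest its start. The other Rarg start and the last Pparg start held none of these letters, and the other Thrb start held CACGTG. Of the called receptors not shown, Rora held none of these letters, and an Nr6a1 start held TGACCT 91 and 45 bases before it. The bases that follow the Rarg start shown were not found in a transcript of the reference, unlike those of the other windows shown. Over windows of 250 bases before to 50 after a start, with both strands searched, AGGTCA was found for 10 of the 36 receptors with a window and CACGTG for 4 of the 36. Over all 27025 genes with a window these shares were 18.1% and 8.09%. Counted by window, AGGTCA was in 11 of 57 receptor windows and 16.3% of all 32851 windows. CACGTG was in 5 of 57 and 7.15%. The DR1 direct repeat (AGGTCA again after 1 base of any kind), TCAAGGTCA (ERR and LRH1) and CAAAGTCCA (HNF4) were in no receptor window, and in 0.0481%, 0.466% and 0.555% of all genes. TGATGCAA, which contains no AGGTCA, is the letters of a C/EBP-ATF element and was found for Esrra alone, against 1.03% of all genes. No measurement of binding or chromatin was analysed here, and a match describes these letters alone.

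The first question was how the receptors are distributed over the tissues of Ctrl mice. Each tissue had its own leading receptors. In liver Hnf4a was the most abundant, at 171.8 ± 21.6 FPKM (SD, n = 3, as for all means below), ahead of Rxra at 77.0 ± 10.9, Nr1i3 (CAR) at 73.3 ± 1.24 and Nr2f6 (EAR2) at 64.9 ± 3.67 FPKM. In iWAT Pparg led at 145.5 ± 16.4 FPKM, ahead of Thra (TRalpha) at 78.0 ± 10.2 FPKM. In GM Esrra (ERRalpha), at 53.3 ± 2.05 FPKM, was ahead of Rxrg at 46.3 ± 0.321 FPKM. In hypothalamus Thra reached 299.6 ± 20.6 FPKM, with Nr1h2 (LXRbeta) next at 31.7 ± 2.01 FPKM. Thra overlaps Nr1d1 and Esrra overlaps Trmt112 on the opposite strand, and the library kit does not keep strand, so reads of an overlap cannot be assigned to either gene. Hnf4a, Nr2f1, Nr2f2, Nr2c2, Esrrg, Ppard, Rora and Nr6a1 also overlap other annotated genes, among them Hnf4aos at Hnf4a.

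**Figure D1:**
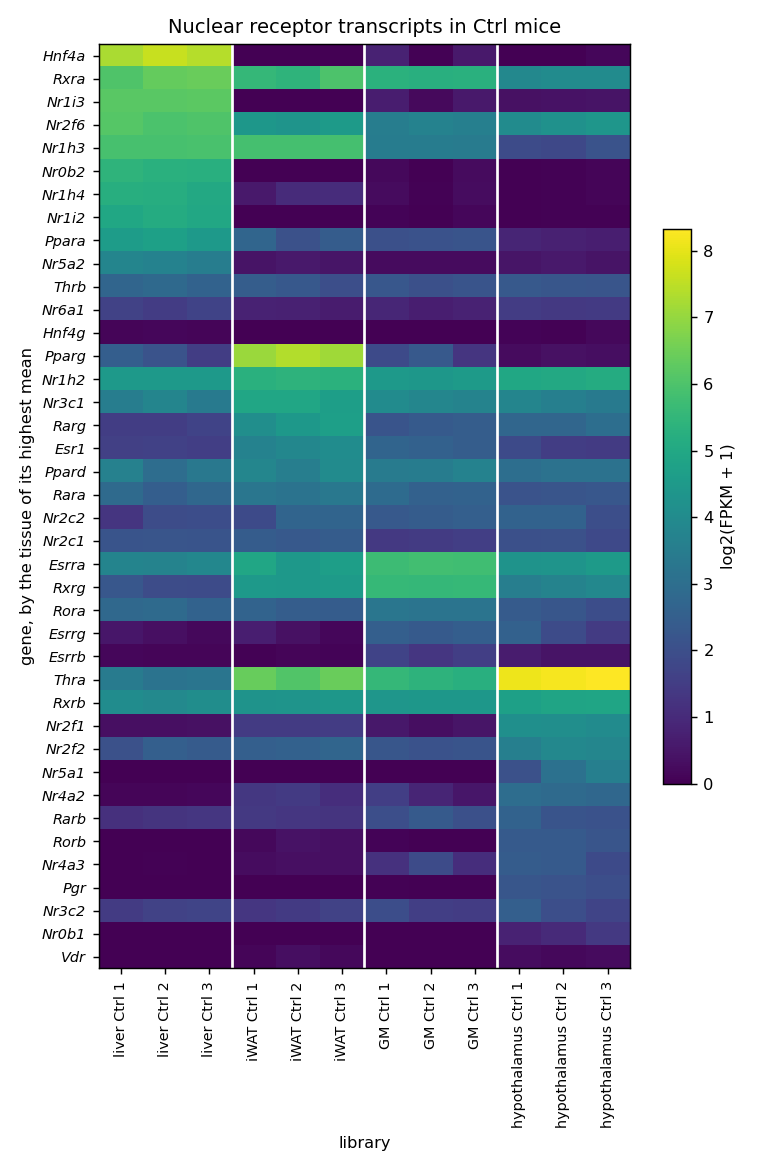
Level of each receptor transcript in the 12 Ctrl libraries, as log2(FPKM + 1) in colour, with genes grouped by the tissue of their highest mean and sorted by it. The blocks of Hnf4a to Nr5a2 in liver, Pparg in iWAT, Esrra and Rxrg in GM and Thra in hypothalamus are bright in all 3 libraries of the tissue.

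A receptor was called highest in a tissue when it was at least 2-fold above each of the other tissues with an adjusted p under 0.05 in each contrast (limma over 15320 genes in the 12 Ctrl libraries). Of 37 receptors tested, 8 were highest in liver, where 6.43% of all genes were. They were Hnf4a, Nr1i3, Nr2f6, Nr0b2 (SHP), Nr1h4 (FXR), Nr1i2 (PXR), Ppara and Nr5a2 (LRH1, an inducer of bile acid synthesis). Outside liver, Hnf4a, Nr1i2, Nr1i3, Nr1h4 and Nr0b2 averaged under 1 FPKM in every tissue. Nr1h4 was listed at 34.4 ± 2.40 FPKM in liver and 0.856 ± 0.325 FPKM in iWAT, and Nr0b2 at 39.1 ± 2.67 FPKM in liver and at 0 in all iWAT libraries. Hnf4a stood at 0.737 and 0.494 FPKM in GM Ctrl 1 and Ctrl 3, the libraries with the most Alb, and at 0.0263 FPKM in GM Ctrl 2.

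In iWAT 3 receptors were highest, where 8.78% of all genes were: Pparg, Rarg at 20.7 ± 4.47 FPKM and Esr1, the oestrogen receptor alpha, at 13.6 ± 1.82 FPKM. Pparg in iWAT was far above liver (3.26 ± 1.37 FPKM) and GM (2.73 ± 1.29 FPKM), and these lower neighbours were not shown to differ from each other. In GM 3 were highest, where 4.61% of all genes were: Esrra, Rxrg and the low Esrrb at 1.88 ± 0.353 FPKM. In hypothalamus 7 were highest, where 23.5% of all genes were. They were Thra, the COUP-TF receptors Nr2f1 (16.04 ± 0.726 FPKM) and Nr2f2 (12.7 ± 1.45 FPKM), Nr5a1 (SF1, a factor of the ventromedial nucleus), Nr4a2 (NURR1, known from dopamine neurons, 6.34 ± 0.518 FPKM), Rorb (3.95 ± 0.314 FPKM) and the progesterone receptor Pgr (3.35 ± 0.315 FPKM). Of these 21 receptors 10 averaged 1 FPKM or more in no other tissue, 6 in liver (Hnf4a, Nr1i3, Nr0b2, Nr1h4, Nr1i2 and Nr5a2), 3 in hypothalamus (Nr5a1, Rorb and Pgr) and 1 in GM (Esrrb). They passed the limit on low values only through the tissue in which they are high, so for them the call was fixed by the filter and is a description. With median-ratio scaling of the libraries Nr2f2 and Esr1 no longer passed, and Rxra (liver) and Esrrg (GM) did.

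The other 16 receptors tested were highest in no tissue. Rxrb ranged from 15.2 ± 1.02 FPKM in liver to 27.5 ± 1.65 FPKM in hypothalamus, a ratio of 1.81, and Ppard (PPARdelta) from 7.52 ± 0.446 to 13.1 ± 2.12 FPKM, a ratio of 1.74. Thrb had the flattest profile by this ratio (1.65), with 5.68 ± 0.538 FPKM in liver and 3.45 ± 0.387 FPKM in GM. Nr1h3 (LXRalpha, the oxysterol receptor) was at 59.2 ± 0.618 FPKM in liver and 57.7 ± 0.420 FPKM in iWAT, which were not shown to differ, and at 10.2 ± 0.189 FPKM in GM. The glucocorticoid receptor Nr3c1 was at 27.8 ± 3.05 FPKM in iWAT and between 10.98 and 13.6 FPKM in the others. In all, 20 of the 40 receptors averaged at least 1 FPKM in all 4 tissues and 11 in only 1. Vdr, the vitamin D receptor, and Hnf4g stayed under 1 FPKM in every tissue, at up to 0.177 and 0.089 FPKM.

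Within subfamilies the tissues differed in which form predominated. Of the summed FPKM of the 3 RXR genes, Rxra held 80.5 ± 3.23% in Ctrl liver, Rxrg 44.3 ± 0.301% in GM and Rxrb 50.5 ± 0.667% in hypothalamus. Thra held 95.3 ± 1.14% of the thyroid hormone receptor sum in iWAT and 60.8 ± 4.20% in liver. Of the RAR sum, Rara held 62.5 ± 4.52% in liver and Rarg 66.7 ± 4.78% in iWAT. Ppara held 65.7 ± 6.49% of the PPAR sum in liver, Pparg 89.1 ± 2.53% in iWAT and Ppard 64.1 ± 6.20% in GM and 88.6 ± 1.28% in hypothalamus.

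The second question was which receptors changed in the liver that lacks Crif1. In LKO liver 4 receptors rose, Pparg, Rarg, Rora and Nr6a1, and 2 fell, Nr1i3 (CAR) and Nr0b2 (SHP), of 29 tested. A call needed a fold change of at least 1.5 on the log2(FPKM + 1) scale and an adjusted p under 0.05 (limma over 10956 genes, 3 LKO against 3 Ctrl). Of all genes tested 23.9% were higher and 3.5% lower by the same rule. The median log2 fold change of all genes was 0.33, and that of the receptors 0.10. After median-ratio scaling, which brought the first median to -0.05 and the second to -0.29, 8.82% of all genes were higher and 8.59% lower. Of the receptors 2 were then higher (Pparg and Rarg) and 5 lower (Nr1i3, Nr0b2, Thrb, Nr2f6 and Nr3c1). Every liver value below is therefore to be read against a general shift of 0.33.

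Pparg, the adipocyte regulator that is low in normal liver, was at 4.60, 3.34 and 1.86 FPKM in Ctrl 1 to 3 and at 7.71, 11.9 and 14.7 FPKM in LKO 1 to 3. All LKO livers lay above all Ctrl livers, by 1.56 on the log2 scale (standard error 0.30, adjusted p = 0.00814, limma) and 1.18 after median-ratio scaling. Its share of the PPAR sum went from 8.86 ± 3.02% to 26.6 ± 9.42%, without overlap, and with ordinary in place of moderated variances its adjusted p was 0.0578. The level of 11.4 ± 3.53 FPKM in LKO liver stayed far under the 145.5 FPKM of Ctrl iWAT. Ppara, its relative that is highest in liver, was at 23.6 ± 2.02 FPKM in Ctrl and 25.3 ± 3.06 FPKM in LKO, a log2 difference of 0.09 (-0.33 after scaling, adjusted p = 0.557 and 0.195, limma). Ppard ranged from 6.84 to 11.6 FPKM in Ctrl and was at 11.5, 3.80 and 5.65 FPKM in LKO 1 to 3, with overlapping groups (log2 -0.44).

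The retinoic acid receptor Rarg was at 1.87, 1.83 and 2.21 FPKM in Ctrl liver and at 3.37, 5.31 and 6.34 FPKM in LKO liver. The groups did not overlap and the log2 fold change was 0.99 (standard error 0.20, adjusted p = 0.00944, limma), or 0.65 after scaling. With ordinary variances the adjusted p was 0.0542. Rarb was at 1.36 ± 0.133 and 2.08 ± 0.290 FPKM, under the 1.5-fold limit on the log2(FPKM + 1) scale (log2 0.38, adjusted p = 0.034, limma). Rara was at 5.61 ± 0.946 and 6.52 ± 0.670 FPKM (log2 0.19). Rarg made up 22.1 ± 2.16% of the RAR sum in Ctrl and 36.2 ± 5.05% in LKO liver, while Rara went from 62.5 ± 4.52% to 48.4 ± 4.54%, both without overlap. The RXR partners gave small differences. Rxra was at 77.0 ± 10.9 and 75.8 ± 2.86 FPKM (log2 -0.01, 0.11 with the deposited TPM), and Rxrb was at 15.2 ± 1.02 and 20.5 ± 4.56 FPKM (log2 0.38, -0.04 after scaling), neither past the test.

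**Figure D2:**
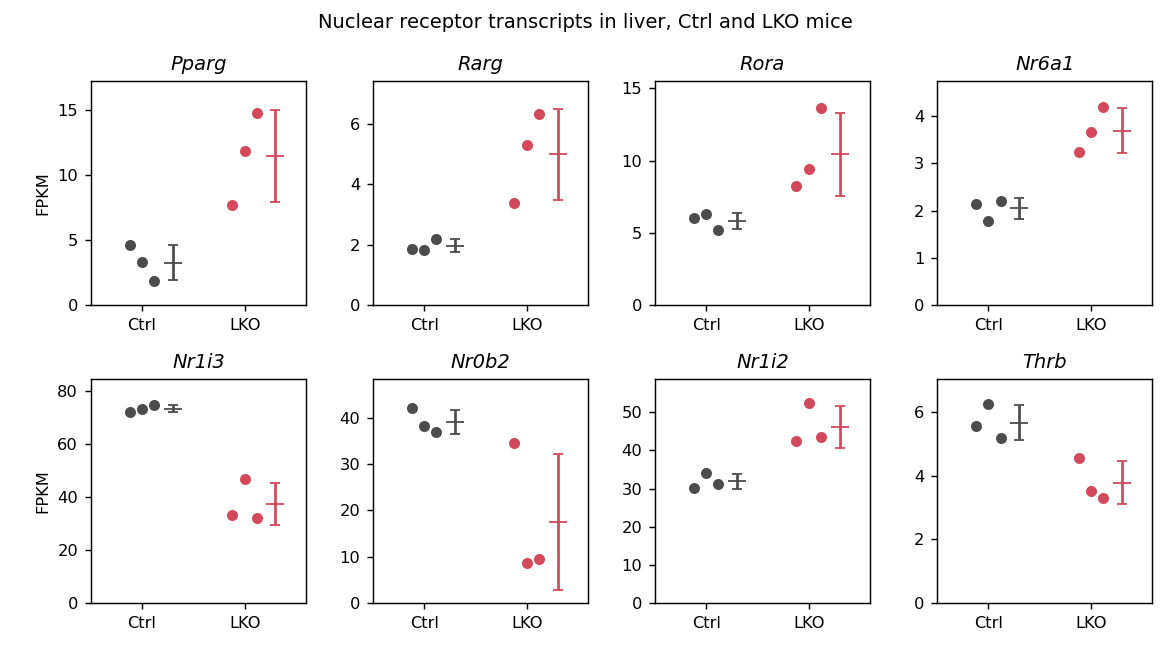
FPKM of 8 receptors in liver, with 1 point per library for Ctrl (grey) and LKO (red) mice and the mean ± SD (n = 3) beside the points, on axes that start at 0. In each panel the LKO points lie to one side of the Ctrl points, and Nr0b2 in LKO 1 is at 34.5 FPKM, near the Ctrl range of 36.9 to 42.1 FPKM.

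Marker transcripts of other liver cells were higher in LKO liver as well. All 8 stellate cell and fibroblast markers, 6 of 6 Kupffer cell and macrophage markers, 5 of 5 bile duct markers, the 3 monocyte and neutrophil markers tested and 3 of 6 endothelial markers were called higher. In that order their summed levels were 70.9 to 78.6, 109 to 112, 30.7 to 31.8, 48.4 to 54.6 and 35.2 to 38.7 FPKM in Ctrl livers. In LKO livers they were 191 to 214, 232 to 363, 41.6 to 88.9, 138 to 180 and 46.8 to 77.0 FPKM. After median-ratio scaling 6, 6, 3, 3 and 1 were called higher. Among the stellate markers the defining gene Reln went from 3.54 ± 0.258 to 7.31 ± 0.996 FPKM, and of the Kupffer cell markers Clec4f went from 38.6 ± 1.31 to 87.0 ± 23.8 FPKM. The part of these cells in the higher Pparg, Rarg, Rarb, Rora and Nr6a1 was not tested. The adipocyte markers Adipoq and Plin1 were at most 0.278 and 0.0969 FPKM in any liver. Fabp4 and Cidec, from the same list, were called higher, Fabp4 not after scaling (log2 0.84, then 0.42). The cells in which Fabp4 and Cidec were higher were not tested.

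Among the orphan receptors, Rora (RORalpha, a receptor of the clock and of lipid metabolism) was at 6.01, 6.30 and 5.18 FPKM in Ctrl and 8.22, 9.41 and 13.7 FPKM in LKO liver, with a log2 fold change of 0.72 (adjusted p = 0.0216, limma). After scaling it was 0.32 and not called, and the call was also lost with ordinary variances (adjusted p 0.0783, limma) and without any 1 library other than LKO 1. Nr6a1 (GCNF, a repressor known from germ cells) was at 2.14, 1.79 and 2.205 FPKM in Ctrl and 3.23, 3.66 and 4.19 FPKM in LKO liver, with a log2 fold change of 0.62 (adjusted p = 0.00965, limma) and 0.30 after scaling, where it was not called, as it was not without Ctrl 2 or LKO 3. Hnf4a itself was at 153.2, 195.5 and 166.7 FPKM in Ctrl and 172.8, 180.2 and 139.4 FPKM in LKO liver, with overlapping groups and a log2 difference of -0.07 (-0.51 after scaling, 0.06 with the deposited TPM). Nr5a2 was at 11.8 ± 1.22 and 10.7 ± 1.82 FPKM (log2 -0.14), and Nr2f6 at 64.9 ± 3.67 and 57.5 ± 4.89 FPKM (log2 -0.17, and -0.61 with an adjusted p of 0.03 by limma after scaling).

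Nr1i3, the constitutive androstane receptor CAR that induces cytochromes for foreign compounds, was at 72.2, 73.0 and 74.6 FPKM in the Ctrl livers. In LKO livers it was at 33.3, 46.6 and 32.0 FPKM, below every Ctrl liver. On the log2 scale the difference was -0.97 (adjusted p = 0.0043, limma, standard error 0.15) and -1.41 after scaling. Nr1i3 overlaps Tomm40l on the opposite strand. Nr1i2, the pregnane X receptor PXR with which it shares targets, was at 30.2, 34.2 and 31.2 FPKM in Ctrl and 42.4, 52.3 and 43.5 FPKM in LKO liver. That log2 difference of 0.52 (adjusted p = 0.0147, limma) was under the 1.5-fold limit and was 0.08 after scaling. The share of Nr1i2 in the sum of both was 30.3 ± 1.39% in Ctrl and 55.5 ± 2.42% in LKO liver, a ratio within each library that scaling does not touch. The shares did not overlap (52.9% to 57.7% in LKO and 29.5% to 31.9% in Ctrl).

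Nr0b2, the small heterodimer partner SHP that FXR induces to restrain bile acid synthesis, was at 42.1, 38.3 and 36.9 FPKM in Ctrl and at 34.5, 8.56 and 9.45 FPKM in LKO 1 to 3. LKO 1 was thus close to the Ctrl livers and the other LKO livers were far below them. Without LKO 1 the log2 fold change was -2.00. With all livers it was -1.39 (standard error 0.46, adjusted p = 0.0451, limma), -1.81 after scaling, and the call was lost when any Ctrl liver, LKO 2 or LKO 3 was left out, with no filter on low values (adjusted p 0.0794, limma) and with ordinary variances (0.146). FXR itself, Nr1h4, was at 34.4 ± 2.40 and 38.1 ± 3.25 FPKM (log2 0.14, -0.29 after scaling), with overlapping groups. LXRalpha, Nr1h3, was at 59.2 ± 0.618 and 63.4 ± 2.59 FPKM without overlap and LXRbeta, Nr1h2, at 21.4 ± 0.317 and 25.2 ± 3.27 FPKM, neither called, with log2 differences of 0.10 and 0.22 that turned to -0.34 and -0.21 after scaling.

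Of the thyroid hormone receptors, Thrb (TRbeta) was at 5.58, 6.26 and 5.20 FPKM in Ctrl and 4.55, 3.53 and 3.29 FPKM in LKO liver, without overlap. Its log2 difference of -0.49 (adjusted p = 0.0292, limma) was under the fold limit, and -0.84 (adjusted p = 0.015, limma) after scaling, where it was called. Thra was at 8.83 ± 1.03 and 8.19 ± 1.19 FPKM with overlapping groups (log2 -0.10). Of the steroid receptors, Nr3c1 was at 10.98 ± 1.504 and 9.51 ± 0.539 FPKM (log2 -0.18, and -0.59 with a call after scaling), the mineralocorticoid receptor Nr3c2 at 2.04 ± 0.266 and 2.17 ± 0.281 FPKM (log2 0.06), and Esr1 at 1.99 ± 0.0703 in Ctrl and at 4.80, 2.01 and 1.98 FPKM in LKO 1 to 3 (log2 0.32). Esrra was at 12.7 ± 0.701 and 12.9 ± 4.45 FPKM (log2 -0.03), with LKO 1 lowest at 8.55 and LKO 3 highest at 17.4 FPKM.

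The orphan receptor Nr2c1 was at 3.54 ± 0.0483 and 4.92 ± 1.14 FPKM, without overlap and not called (log2 0.36, 0.01 after scaling). Nr2c2 (log2 0.48), Nr2f2 (0.16) and Rxrg (-0.06) had overlapping groups.

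Counted without a test, 9 of the 29 receptors tested lay wholly above and 3 wholly below the Ctrl livers, and 61.1% of all genes had groups that did not overlap in liver. Another 11 receptors were under the limit of 1 FPKM in 3 libraries and were not tested in liver. Of these, Vdr, Nr2f1, Esrrb, Nr4a2 and Nr4a3 were higher in every LKO liver and Hnf4g and Esrrg lower, none above 0.573 FPKM in any liver. An exact permutation test of 3 against 3 libraries gives 0.1 at best. Nr5a1, Nr0b1 and Pgr were listed at 0 in all livers, and Rorb was at most 0.0027 FPKM.

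The receptors' known target genes moved in both directions in LKO liver. The lists of targets hold genes known from earlier work and were not read from these libraries. Of the 10 CAR and PXR targets, 7 were called higher and 2 lower, with a median log2 fold change of 1.58 against 0.33 for all genes, of which 23.9% were higher and 3.5% lower. After median-ratio scaling 6 were called higher and 2 lower, with a median of 1.18. Cyp2b10, the classical CAR-induced cytochrome, was at 1.27, 0.492 and 0.3202 FPKM in Ctrl and 8.39, 19.6 and 57.9 FPKM in LKO liver (log2 3.77, adjusted p = 0.00467, limma). Cyp2c37 went the other way, from 173.1 ± 18.9 to 15.4 ± 2.66 FPKM (log2 -3.42, adjusted p = 0.000136, limma). Gstm3, a glutathione transferase, had a log2 fold change of 3.07 (adjusted p = 0.00251, limma). Of the 16 PPAR targets tested, 9 were called higher and 0 lower by limma, with 9 higher and 1 lower (Fabp1, log2 -0.88) at an unadjusted p under 0.05, and a median of 0.76. After scaling 7 were called higher and 1 lower, where 8.82% and 8.59% of all genes were, with a median of 0.32. The largest were Pdk4 (log2 4.20, 3.01 ± 1.19 to 97.7 ± 75.9 FPKM), which spares glucose from oxidation, the fatty acid transporter Cd36 (log2 3.19) and the omega-hydroxylase Cyp4a14 (log2 2.64).

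The hepatocyte markers summed to 63900 to 67900 FPKM in Ctrl and 43700 to 73300 FPKM in LKO livers, with Alb in overlapping groups. Of the 6 markers 3 lay wholly below the Ctrl livers, where 61.1% of all genes had groups without overlap in either direction. By limma 1 was called lower and 0 higher (0 higher and 2 lower with an unadjusted p), with a median log2 of -0.33 and of -0.77 after scaling. The markers Ttr and Apoc3 are also on the list of HNF4alpha targets. HNF4alpha targets were called lower in 6 and higher in 1 of 16 tested, where 3.5% of all genes were lower and 23.9% higher. Their median was -0.40, while Hnf4a itself gave overlapping groups. After scaling 7 were called lower and 1 higher, with a median of -0.84. The bile acid enzyme Cyp7b1 had the largest fold (log2 -2.79, 106.3 ± 44.5 to 15.6 ± 8.78 FPKM), ahead of the apolipoprotein Apoa4, which was higher (log2 2.39), and Serpina1e (log2 -2.16). FXR targets were called higher in 2 (Abcb4 and Slc51b, transporters of phospholipid and bile acid, log2 1.12 and 1.10) and lower in 2 of 9 tested (Slc27a5 at log2 -1.08 and Baat), where 23.9% of all genes were higher and 3.5% lower. After scaling 2 were called higher and 3 lower. LXR targets were called higher in 4 and lower in 2 of 10. Of these, Srebf1, the lipogenic factor, was at log2 -1.29 and the sterol transporter Abcg8 at -1.07, while Cyp7a1, the rate-limiting enzyme of bile acid synthesis, was at 0.84. After median-ratio scaling 0 LXR targets were called higher and the same 2 lower. Among thyroid hormone genes Thrsp (log2 -1.93) and the deiodinase Dio1 (log2 -1.80, 60.1 ± 5.96 to 16.7 ± 2.95 FPKM) were called lower and Me1 higher (log2 0.84) of 6 tested. After scaling 0 of these were called higher, Me1 being lost at log2 0.41, and 3 lower, against 8.82% and 8.59% of all genes. Of the retinoid genes, Lrat (log2 1.13), known from stellate cells and also on the list of stellate markers, was called higher. Of 16 coregulators 3 were called higher (Tbl1x, Ppargc1a and Nrip1, log2 0.87, 0.71 and 0.64) and 0 lower by limma, a count that an unadjusted p did not change. That share was below the 23.9% of all genes called higher, and none of the 16 was called after scaling.

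**Figure D3:**
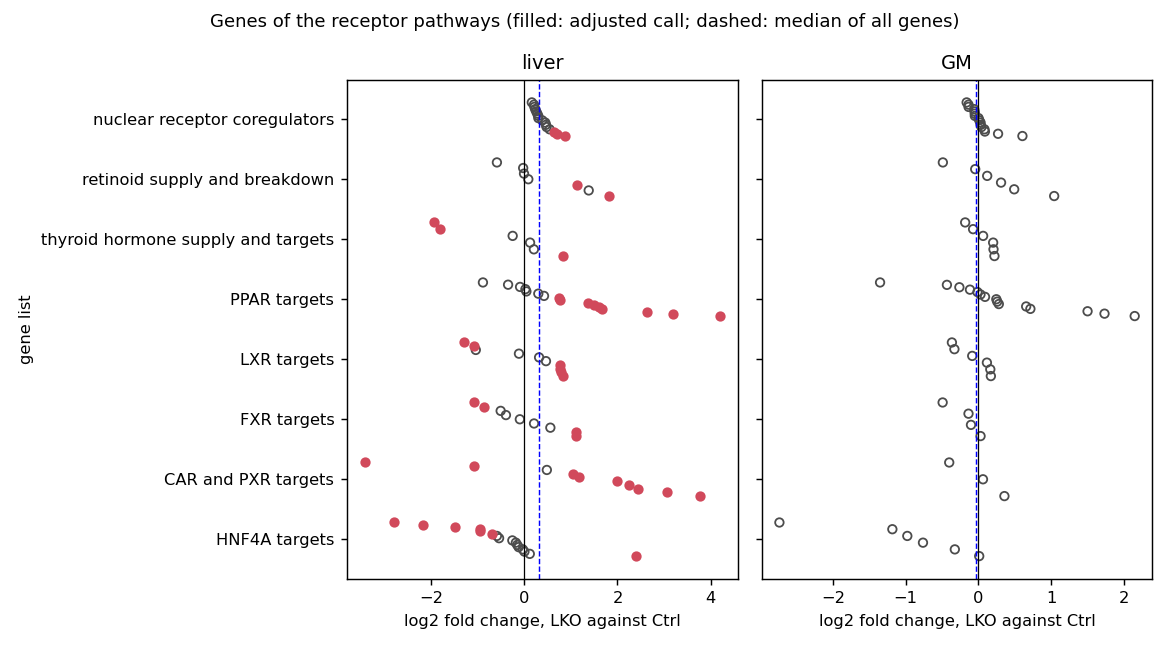
Log2 fold change of LKO against Ctrl for the tested genes of 8 receptor pathway lists in liver and GM, 1 point per gene, filled where the adjusted call was made. The dashed line is the median of all genes tested in the tissue (0.33 in liver), CAR and PXR targets and PPAR targets extend furthest to the right in liver, and no point is filled in GM.

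In iWAT, where Crif1 had a log2 difference of -0.22 and was not called, no receptor passed the adjusted test, and 0% of all 12288 genes did (limma, smallest adjusted p 0.0734). With an unadjusted p in its place, Thrb and Ppara were higher and Pparg was lower, 2 and 1 of 25 tested, where 1.95% of all genes were higher and 1.29% lower. At any fold 9 of the 25 receptors had an unadjusted p under 0.05, against 15% of all genes. Thrb was at 4.53, 3.94 and 3.05 FPKM in Ctrl and 9.49, 9.25 and 8.74 FPKM in LKO iWAT. These groups were far apart, with a log2 difference of 1.08 (standard error 0.13, adjusted p = 0.0817, limma). The adjusted p ranged from 0.0497 without LKO 1 to 0.275 without LKO 2. Thra, the other thyroid hormone receptor, was at 78.0 ± 10.2 and 66.6 ± 8.60 FPKM, with overlapping groups, and the share of Thrb in their sum went from 4.76 ± 1.14% to 12.2 ± 1.85%.

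Pparg in iWAT was at 133.2, 164.1 and 139.2 FPKM in Ctrl and 78.4, 101.1 and 103.1 FPKM in LKO, each LKO library below each Ctrl library (log2 -0.63, adjusted p = 0.13, limma). Ppara was at 5.63, 3.21 and 4.41 FPKM in Ctrl and 8.04, 7.23 and 6.08 FPKM in LKO iWAT (log2 0.60, adjusted p = 0.209, limma). Their shares of the PPAR sum changed in opposite directions without overlap, Pparg from 89.1 ± 2.53% to 83.3 ± 2.69% and Ppara from 2.76 ± 0.953% to 6.43 ± 1.64%. Ppard stayed between 10.9 and 15.2 FPKM in all 6 libraries.

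Below the 1.5-fold limit on the log2(FPKM + 1) scale, Rara (8.60 ± 0.491 to 6.07 ± 0.749 FPKM), Nr3c1 (27.8 ± 3.05 to 20.5 ± 1.43 FPKM), Esr1 (13.6 ± 1.82 to 9.51 ± 0.683 FPKM) and Rxrg (21.5 ± 0.882 to 18.6 ± 0.228 FPKM) were lower in every LKO library. Their log2 differences were -0.45, -0.42, -0.47 and -0.20. Also under this limit, Rarb (1.49 ± 0.105 to 2.29 ± 0.468 FPKM), Nr1h3 (57.7 ± 0.420 to 65.9 ± 4.97 FPKM) and Nr2c1 (4.25 ± 0.170 to 4.58 ± 0.132 FPKM) were higher in every LKO library, by log2 0.39, 0.19 and 0.09. With Thrb, Ppara and Pparg that makes 5 higher and 5 lower among the 25 tested, where the groups of 20.8% of all genes did not overlap. Of the 15 receptors not tested in iWAT, Vdr (0.144 ± 0.0862 to 0.437 ± 0.0797 FPKM) and Nr4a3 (0.250 ± 0.0361 to 0.635 ± 0.3195 FPKM) were higher in every LKO library.

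**Figure D4:**
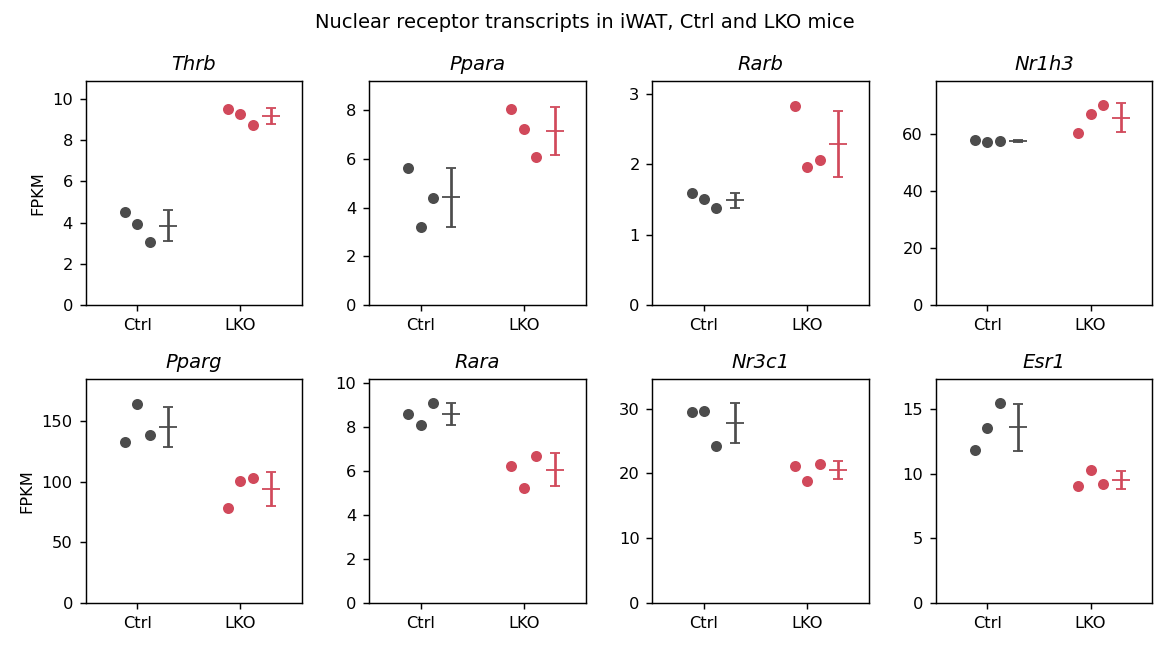
FPKM of 8 receptors in iWAT, with 1 point per library for Ctrl (grey) and LKO (red) mice and the mean ± SD (n = 3) beside the points, on axes that start at 0. Thrb goes from at most 4.53 FPKM in Ctrl to at least 8.74 FPKM in LKO, and Pparg, Rara, Nr3c1 and Esr1 lie lower in LKO.

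The 6 adipocyte markers summed to 22500 to 26600 FPKM in Ctrl and 27700 to 28800 FPKM in LKO iWAT, without overlap, with a median log2 difference of 0.0012. Of these, Fabp4 and Cidec were wholly higher in LKO (log2 0.28 and 0.33), Lep was wholly lower (log2 -1.29, adjusted p = 0.204, limma), and Adipoq, at 2784 to 3036 FPKM, and the others had overlapping groups. The endothelial markers summed to 136 to 187 FPKM in Ctrl and 220 to 278 FPKM in LKO iWAT, and the macrophage markers to 121, 329 and 188 FPKM in Ctrl 1 to 3 against 120 to 175 FPKM in LKO. The brown adipocyte markers summed to 507, 314 and 164 FPKM in Ctrl 1 to 3 and to 620, 454 and 766 FPKM in LKO 1 to 3. Their median log2 difference was 0.88, with 2 of 5 higher at an unadjusted p and 0 at an adjusted p (limma), and Ucp1 was at 39.2 ± 39.1 and 119.4 ± 85.7 FPKM in overlapping groups. The part of these cells in the receptor differences was not tested. Without Ctrl 2, the library with the most macrophage markers, and likewise without LKO 1, only 1 receptor passed the unadjusted criterion in place of 3, since Ppara and Pparg then lay under the fold limit. PPAR targets were higher in 2 and lower in 0 of 15 tested at an unadjusted p (1.95% and 1.29% of all genes), with 0 of 15 at an adjusted p by limma. Pdk4 had the larger difference (64.3 ± 8.79 to 158.7 ± 34.5 FPKM, log2 1.28). Srebf1 was lower (log2 -0.65, adjusted p = 0.0884, limma).

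In GM no receptor and 0% of all 10877 genes passed the adjusted test by limma. At an unadjusted p, Nr4a3 (NOR1, an early response gene of exercise) alone of 25 receptors was higher by at least 1.5-fold and none was lower, where 0.579% of all genes were higher and 0.322% lower. It was at 1.27, 2.74 and 1.13 FPKM in Ctrl and 2.64, 9.41 and 4.41 FPKM in LKO muscle. LKO 1 lay below Ctrl 2, the log2 difference was 1.17 (standard error 0.39, adjusted p = 0.626, limma), and it was lost without Ctrl 1 or without Ctrl 3. At any fold 5 receptors had an unadjusted p under 0.05, against 6.83% of all genes.

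Small differences without overlap were found in 7 of the 25, 3 higher and 4 lower, where 11.6% of all genes had such groups. Ppara was at 3.12, 3.25 and 3.52 FPKM in Ctrl and 4.03, 4.27 and 4.55 FPKM in LKO muscle (log2 0.30, adjusted p = 0.563, limma). Thrb was at 3.84, 3.07 and 3.44 FPKM in Ctrl and 2.73, 2.21 and 2.39 FPKM in LKO muscle (log2 -0.37), the opposite direction to iWAT. Esrra was at 53.3 ± 2.05 and 46.8 ± 1.63 FPKM (log2 -0.19), Nr1h3 at 10.2 ± 0.189 and 8.91 ± 0.0833 FPKM (log2 -0.17), Rxrb at 20.0 ± 0.168 and 18.4 ± 0.252 FPKM (log2 -0.12), Rora at 8.35 ± 0.190 and 9.12 ± 0.274 FPKM (log2 0.11) and Nr2c1 at 1.76 ± 0.142 and 1.97 ± 0.0266 FPKM (log2 0.11).

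Pparg in GM was at 2.68, 4.04 and 1.46 FPKM in Ctrl and 3.10, 1.83 and 1.53 FPKM in LKO. The adipocyte marker Adipoq was at 27.3, 39.1 and 6.62 FPKM and at 48.1, 6.53 and 10.5 FPKM in the same libraries, and the 3 libraries with the most Adipoq were the 3 with the most Pparg. PPAR targets were higher in 5 of 15 tested at an unadjusted p, where 0.579% of all genes were, and in 0 at an adjusted p (limma). The largest were Pdk4 (58.3, 176.2 and 165.1 FPKM in Ctrl and 359.7, 690.4 and 609.6 FPKM in LKO, log2 2.15), Angptl4, an inhibitor of lipoprotein lipase (4.08 ± 1.70 to 16.3 ± 7.89 FPKM, log2 1.73), and the uncoupling protein Ucp3 (39.3 ± 14.6 to 111.3 ± 35.9 FPKM, log2 1.5).

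**Figure D5:**
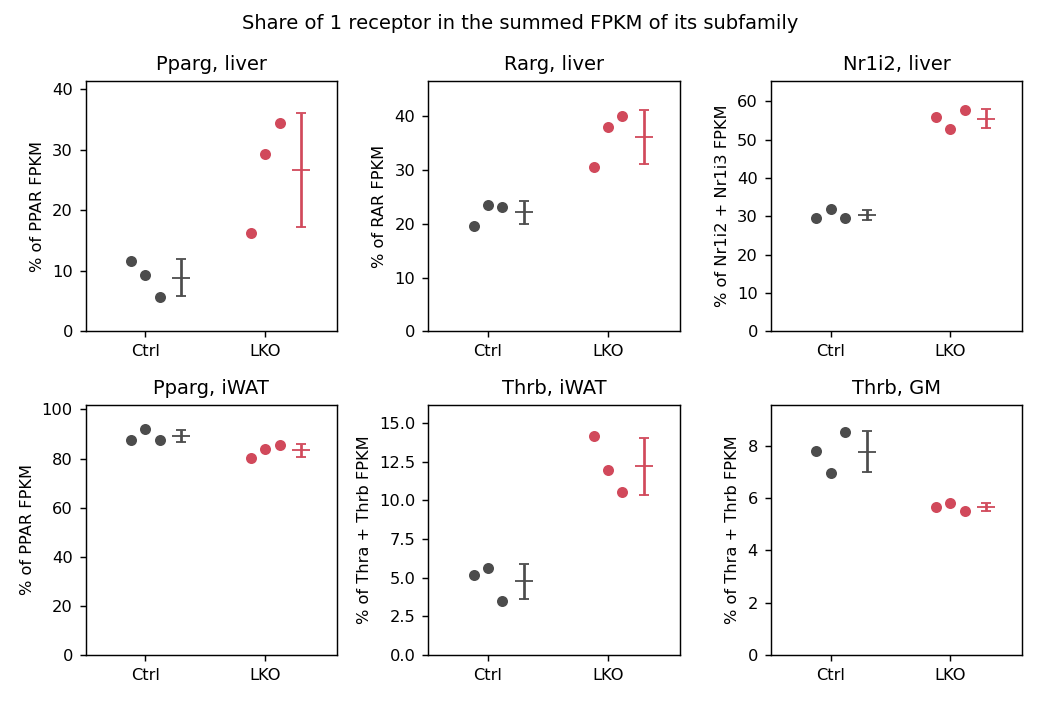
Share of 1 receptor in the summed FPKM of its subfamily, in percent, with 1 point per library for Ctrl (grey) and LKO (red) mice and the mean ± SD (n = 3) beside the points, on axes that start at 0. The groups do not overlap in any of the 6 panels, and Thrb is higher in LKO iWAT and lower in LKO GM.

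Over the subfamilies, each of 86 shares was given a two-sided exact permutation p, and the lowest possible value of 0.1 was reached by the shares without overlap and became 0.319 after Benjamini-Hochberg adjustment. Of these, 10 of 23 were without overlap in liver, 7 of 21 in iWAT, 10 of 21 in GM and 0 of 21 for hypothalamus. Shares of 1 subfamily sum to 100% and are not independent of each other. In GM the share of Thrb went from 7.77 ± 0.780% to 5.66 ± 0.148% and that of Ppara from 19.7 ± 1.08% to 25.7 ± 3.01%.

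In hypothalamus no receptor passed either criterion of 29 tested by limma. Of all 13828 genes 0.0217% passed the adjusted test, and 0.166% were higher and 0.166% lower by the unadjusted one. At any fold 1 receptor, Nr4a2, had an unadjusted p under 0.05, against 3.72% of all genes. Nr4a2 was at 6.85, 6.33 and 5.82 FPKM in Ctrl and 4.61, 5.42 and 5.64 FPKM in LKO hypothalamus (log2 -0.24, adjusted p = 0.999, limma). Groups did not overlap for 3 receptors that were higher (Thrb, Rorb and Nr6a1, log2 0.11 to 0.13) and 3 that were lower (Rarg, Esrra and Nr4a2, log2 -0.20 to -0.24), where 9.7% of all genes had such groups. Nr5a1 was at 3.17, 7.63 and 11.1 FPKM in Ctrl 1 to 3 and 7.26, 6.74 and 7.16 FPKM in LKO. The pituitary markers summed to 51.2, 54.3 and 7.45 FPKM in the same Ctrl libraries and 591, 174 and 131 FPKM in LKO 1 to 3, and their part in the Nr5a1 values was not tested. Its relative Nr0b1 (DAX1) was at 0.729, 1.01 and 1.59 FPKM in the same order in Ctrl and 1.11, 0.856 and 0.890 FPKM in LKO hypothalamus.

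The last question was whether the effect of the genotype differed between tissues. An F test over the 3 contrasts of genotype and tissue in all 24 libraries passed for 10 of 38 receptors (adjusted p under 0.05, limma), where 33.5% of all genes passed. For 3 of the 10, Nr1i3, Nr1i2 and Nr0b2, only liver passed the limit on low values, so the test repeats their liver difference and does not compare tissues. Thrb had the smallest adjusted p (2.36e-06), with log2 differences of 1.08 in iWAT against -0.49 in liver, -0.37 in GM and 0.12 in hypothalamus. Pparg (adjusted p = 0.000834, limma) was at 1.56 in liver, -0.63 in iWAT and -0.21 in GM, and Rarg (adjusted p = 0.00657, limma) at 0.99, -0.18 and -0.08 in the same tissues and -0.20 in hypothalamus. Ppara (adjusted p = 0.0334, limma) was at 0.09 in liver, or -0.33 after scaling, 0.60 in iWAT and 0.30 in GM, and lost its call in 11 of 24 fits that left out 1 library. Nr4a3, Nr6a1 and Rarb passed too, but none of them after median-ratio scaling.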

How the data were processed

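RNA was extracted with Trizol, and libraries made with a TruSeq RNA v2 kit, which does not mark strand, were read on a HiSeq4000. Per the labels, the authors' processing used FastQC 0.11.5, Trimmomatic 0.32, HISAT2 2.0.5, Bowtie2 2.2.6, STAR 2.5.2b and StringTie 1.3.3b on mm10. The deposited FPKM values, scaled by the authors to the fragments of each library, were the main measure. The deposited TPM values, scaled by the authors to the same total in each library, were an alternative. The deposited coverage, the mean read depth over a transcript, served only to infer depth. Read counts were not used here.

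The 40 receptors, the gene lists and the tests were chosen with earlier results of these data known. A gene was tested where 3 or more libraries reached 1 FPKM, on log2(FPKM + 1), which understates the change of low genes, with limma 3.58.1 in R 4.3.3 (trended prior variance), within each tissue and without a block. A call required a fold of 1.5 and p under 0.05 after Benjamini-Hochberg adjustment over every gene tested. The unadjusted criterion was the same fold with an unadjusted p under 0.05. Median-ratio scaling divided each library by the median ratio of its FPKM to the gene-wise mean. The fits were tested on simulated data. All receptors were eligible to be named. Fold changes are given for those tested in liver and, elsewhere, for those past the unadjusted criterion or without overlap, with up to 3 genes from each pathway list, of which some are not reported here. Python 3.11.15, numpy 2.4.6, pandas 2.3.3 and matplotlib 3.10.9 were used for shares, sequences and plots. Alternatives were a pseudocount of 0.1, no filter, TPM, median-ratio scaling, ordinary variances, a replicate block and leaving out each library.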

Additional observations from a re-analysis of the deposited data

Results flagged for a closer look

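The interaction of genotype and tissue (F test over 24 libraries, limma, Benjamini-Hochberg adjusted p) passed for 10 receptors. Thrb had an adjusted p of 2.36e-06, with every LKO library above every Ctrl library in iWAT and below in liver and GM. Pparg had an adjusted p of 0.000834, higher in every LKO liver and lower in every LKO iWAT library, and Rarg 0.00657, higher in every LKO liver. Nr1i3, Nr1i2 and Nr0b2 had adjusted p-values of 0.00033, 0.000922 and 0.0243, but passed the limit on low values in liver alone, so these values repeat the liver difference and do not compare tissues. For Ppara it was 0.0334, for Nr4a3 0.0302, for Nr6a1 0.0358 and for Rarb 0.0495. After median-ratio scaling Nr1i2 (0.968), Nr6a1 (0.725), Rarb (0.302) and Nr4a3 (0.0503) no longer passed. With a pseudocount of 0.1 the adjusted p was 0.0944 for Nr1i3, 0.258 for Nr0b2, 0.239 for Nr1i2, 0.223 for Nr6a1 and 0.0575 for Nr4a3, while Thrb, Pparg and Rarg passed under both. With TPM Nr0b2 (0.0526), with no filter Rarb (0.0683) and with the replicate block Rarb (0.082) did not pass. Of 24 fits that left out 1 library, Rarb lost its call in 16 (adjusted p up to 0.106), Ppara in 11 (0.077), Nr4a3 in 8 (0.0823), Nr6a1 in 8 (0.136) and Nr0b2 in 5 (0.109), and Thrb, Pparg, Rarg, Nr1i3 and Nr1i2 in 0. What sets these differences was not tested.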

How the results depend on the processing

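In liver 6 receptors were called, 4 higher and 2 lower. Median-ratio scaling gave 2 higher and 5 lower, no filter on low values gave 4 higher and 1 lower (without Nr0b2), and ordinary variances gave 2 in all, 1 higher and 1 lower. Leaving out 1 library at a time gave 3 to 9 in all, 2 to 5 higher and 1 to 4 lower, with 3 in all without Ctrl 2 or LKO 3 and 9 without LKO 1. Nr0b2 was called only with all livers or without LKO 1 (adjusted p 0.107 to 0.135 without any other library, limma). Rora lost its call without any library but LKO 1, and Nr6a1 without Ctrl 2 or LKO 3. With median-ratio scaling the log2 difference turned negative for Ppara (-0.33), Rara (-0.19), Rxrb (-0.036), Nr1h2 (-0.21), Nr1h3 (-0.34), Nr1h4 (-0.29), Nr2f2 (-0.20) and Nr3c2 (-0.24), and with TPM positive for Rxra (0.11), Rxrg (0.033), Thra (0.010), Hnf4a (0.056) and Esrra (0.085). Leaving out 1 library gave -0.13 to 0.066 for Rxra, -0.25 to 0.18 for Rxrg, -0.18 to 0.0071 for Thra, -0.15 to 0.045 for Hnf4a, -0.012 to 0.11 for Nr3c2 and -0.26 to 0.22 for Esrra. None of these receptors was called, and the cause was not tested.

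In iWAT leaving out 1 library gave 0 to 1 adjusted calls (Thrb, without LKO 1) and 1 to 3 past the unadjusted criterion, in GM 0 and 0 to 2 (0 without Ctrl 1 or Ctrl 3, 2 without LKO 1), and in hypothalamus 0 and 0 to 1 (1 without LKO 1). Ordinary variances gave 0 past the unadjusted criterion in GM. The interaction passed for 6 receptors with a pseudocount of 0.1 and for 6 to 14 with 1 library left out (6 without liver Ctrl 2, LKO 2 or LKO 3, 14 without liver LKO 1). Asking for a fold of at least 4 left 11 receptors highest in 1 tissue, 1 in iWAT, 0 in GM and 3 in hypothalamus. With 1 library left out the total was 20 to 23, with 8 in liver, 3 to 4 in iWAT, 2 to 3 in GM and 7 to 9 in hypothalamus.

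The labels do not say that the replicate numbers pair the samples, and in no tissue did every same-numbered pair correlate above 0.1. The correlation of same-numbered Ctrl and LKO libraries was 0.0276 to 0.154 in liver, -0.124 to 0.302 in iWAT, 0.0499 to 0.354 in GM and -0.135 to 0.14 in hypothalamus, with replicate 1 highest in liver, iWAT and GM (0.154, 0.302 and 0.354). With the replicate block 6 receptors were called in liver (4 higher, 2 lower), 0 elsewhere, 3, 1 and 0 passed the unadjusted criterion in iWAT, GM and hypothalamus, the interaction passed for 11 and 21 were highest in 1 tissue. With 3 libraries a group, receptors under 1 FPKM could not be compared with precision.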

Other observations

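Nr2c2 (TR4, an orphan receptor) was lowest in replicate 1 of both genotypes in liver, iWAT and GM. In liver it was at 1.42, 2.83 and 2.88 FPKM in Ctrl 1 to 3 and 1.81, 5.01 and 4.79 FPKM in LKO 1 to 3. In iWAT it was at 2.62, 5.39 and 5.37 FPKM in Ctrl and 2.71, 4.51 and 3.83 FPKM in LKO, and in GM at 3.99, 4.39 and 4.73 FPKM in Ctrl and 3.69, 5.33 and 4.87 FPKM in LKO. In hypothalamus it was at 5.11, 5.14 and 2.97 FPKM in Ctrl and 2.58, 6.54 and 11.6 FPKM in LKO. The gene overlaps Mrps25 on the opposite strand, and the cause of the low values was not tested.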
